A study of Mus musculus with 61 samples.

Results

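Glycolysis was examined through 10 genes, Hk1, Hk2, Gpi1, Pfkl, Pfkm, Aldoa, Pgk1, Pkm, Ldha and Ldhb, which were chosen by name as enzymes of the route from glucose to lactate and are 10 of the 23927 gene rows of the deposited count table. The study profiled 61 single cells from postnatal day 5 ovaries of wild-type CD-1 mice, collected 6 h after an intraperitoneal injection. There were 16 oocytes and 16 granulosa cells from solvent-treated control mice, and 16 oocytes and 13 granulosa cells from mice given doxorubicin, an anticancer drug that damages DNA. All groups share the strain, the age, the time of collection and the batch label, and the dose was written as 10 with a unit that is not a dose unit, so it is not interpreted here. The series concerns ovarian failure after such drugs, and the question asked of these genes was which members of each enzyme family the 2 cell types use and how their levels compare after doxorubicin. Each library is 1 cell and no animal is named, so each group counted as 1 sample and no difference was tested. The intervals given are 95% intervals for counting error only, and reads copied by PCR are not independent molecules, so the true error is wider.

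Glycolysis splits glucose into pyruvate, and lactate dehydrogenase then converts pyruvate to lactate or back. Many steps have several genes for the same reaction, and the proteins differ in their kinetics and tissue. In the ovarian follicle the oocyte is known to use glucose poorly and to rely on pyruvate, while the granulosa cells around it carry out glycolysis and can supply it with pyruvate. Lactate dehydrogenase is built from A subunits, encoded by Ldha and prominent in glycolytic tissues, and B subunits, encoded by Ldhb and prominent in heart.

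The clearest contrast lay in this last pair, so the 250 bases before a start site of each gene are shown. Both come from RefSeq's promoter table (GRCm38.p6), in which each of the 10 genes was matched. The Ldha window shown is chr7:46845554-46845803 on the plus strand and the Ldhb window is chr6:142507958-142508207 on the minus strand. Both are written 5′ to 3′ along the gene, and capitals mark ACGTG or GCGTG on either strand, the core letters of the hypoxia response element.
Ldha: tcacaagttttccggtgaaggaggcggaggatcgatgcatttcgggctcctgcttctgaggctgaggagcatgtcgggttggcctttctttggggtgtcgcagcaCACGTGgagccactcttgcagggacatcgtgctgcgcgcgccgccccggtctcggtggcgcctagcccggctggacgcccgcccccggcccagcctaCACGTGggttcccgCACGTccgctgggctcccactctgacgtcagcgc
Ldhb: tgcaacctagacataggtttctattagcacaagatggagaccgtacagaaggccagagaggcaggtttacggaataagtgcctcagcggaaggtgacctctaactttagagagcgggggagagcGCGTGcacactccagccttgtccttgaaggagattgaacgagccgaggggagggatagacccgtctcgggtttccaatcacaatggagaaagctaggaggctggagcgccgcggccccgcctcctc
Read over both strands, the Ldha window shown held 5 matches to ACGTG. All but 1 of them lie in its 2 copies of CACGTG, the E-box, which contains ACGTG on each strand. It held no GCGTG and 2 matches to GGGCGG, the GC box. The other Ldha window in RefSeq, chr7:46846832-46847081, is not shown and held no ACGTG, 1 GCGTG and no E-box or GC box. The Ldhb window held no ACGTG and 1 GCGTG, with no E-box or GC box. Across the 32851 promoter windows of the same length, 16.6% held ACGTG, 28.2% held GCGTG, 6.02% held CACGTG and 32.7% held GGGCGG. These are descriptions of letters and say nothing of which factor binds.

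Depth was similar between groups, with 6834594 to 31262609 counts per cell and group medians of 10826400 to 11478200. In the oocytes the 19 oocyte markers summed to 19920 to 71860 CPM per cell (counts scaled to a library total of 1000000), and in none did the 19 granulosa markers sum to more. The granulosa libraries were less uniform. Granulosa markers summed to 444 to 13922 CPM in the controls and 630 to 9963 CPM after doxorubicin, and 17 of 19 reached 5 CPM in each group. Oocyte markers summed to more than granulosa markers in 5 of 16 control and 8 of 13 doxorubicin granulosa libraries, with medians of 1790 and 9213 CPM and highest values of 18580 and 46592 CPM. Stroma markers reached 13316 CPM in control granulosa library 13, and blood markers 34685 CPM in doxorubicin granulosa library 15. Values over libraries chosen by oocyte or granulosa markers are given beside several of the results. Stroma and blood markers were not used in that choice, and each such set kept doxorubicin granulosa library 15. Doxorubicin granulosa library 13, with 7961 CPM of stroma markers, was also kept in the set under 5000 CPM of oocyte markers. The set whose granulosa markers at least equalled their oocyte markers kept it too. The set under 5000 CPM of oocyte markers kept control granulosa libraries 2 and 16, with 8342 and 4384 CPM of stroma markers. CPM is a share of a library and does not show how much RNA a cell holds.

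Control oocytes and control granulosa cells devoted similar totals to the 10 genes but divided them differently. The sum of the 10 had a median of 6765 CPM in control oocytes and 5909 CPM in control granulosa cells, and Ldhb made up 57.5% and 37.6% of the summed counts. The log2 ratio of group CPM, oocytes over granulosa cells, was at or beyond a 2-fold difference for 4 of the 9 genes that reached 5 CPM in either group, and all 4 were lower in oocytes: Ldha, Pfkl, Pfkm and Aldoa. None was at least 2-fold higher. Among all 12373 genes at that level, 29% were at least 2-fold higher and 31.3% at least 2-fold lower in oocytes, 60.3% in all, so such a difference is common between these cell types. The median log2 ratio was -0.64 over the 9 genes and -0.03 over all genes.

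**Figure D1:**
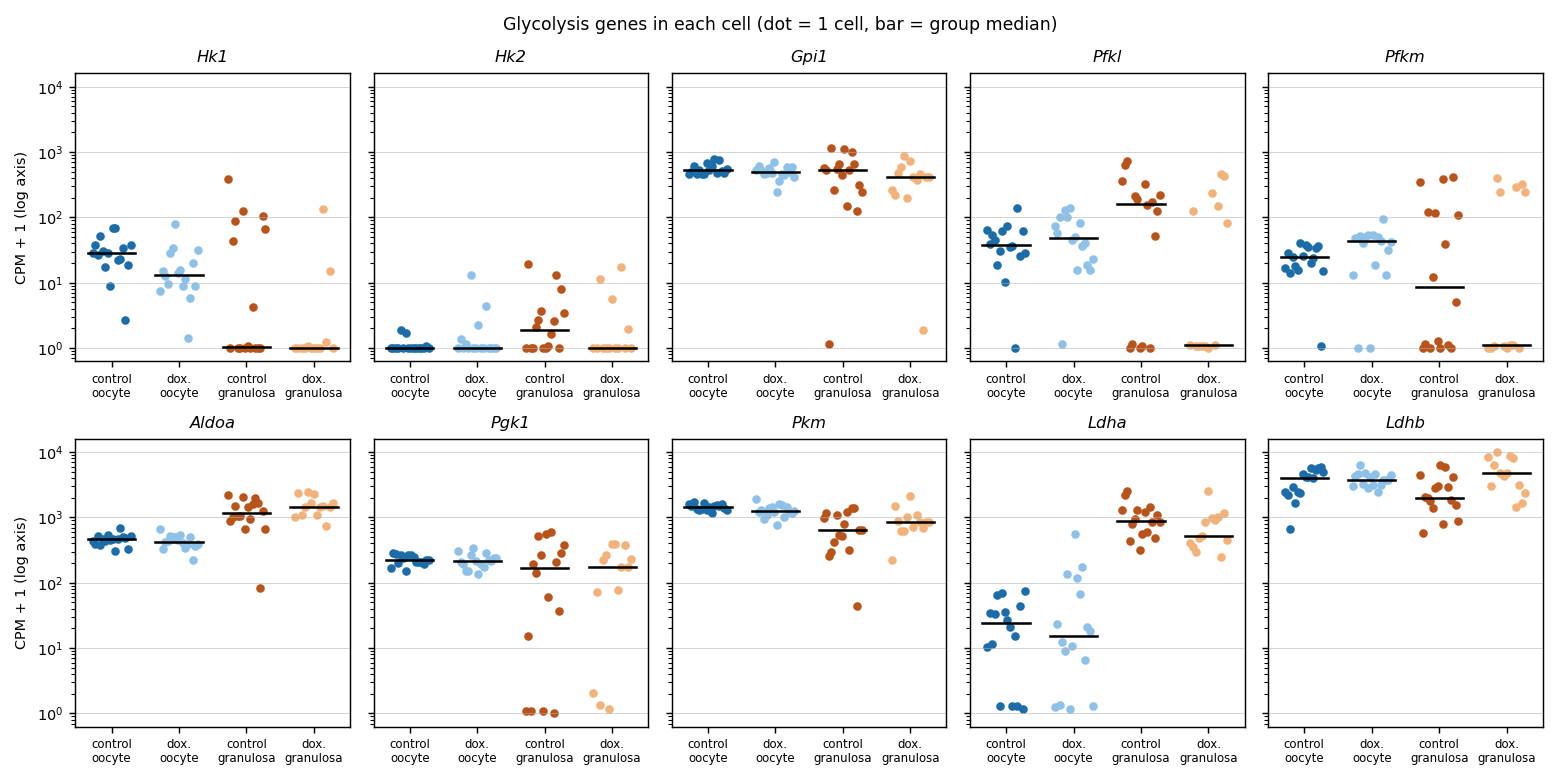
Level of each of the 10 genes in each cell, as CPM + 1 on a log axis, for the 4 groups. Dots are cells and bars are group medians. Ldha separates control oocytes from control granulosa cells without overlap, Gpi1 lies at like levels in both, and Hk1, Pfkl and Pfkm are near 0 in many granulosa cells.

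Hexokinases catalyse the first step, the phosphorylation of glucose. Hk1 (chr10:62268855-62379908, minus strand, GRCm38) is the widely expressed form. In control oocytes it ranged from 1.69 to 69.2 CPM with a median of 28.0, and in control granulosa cells from 0 to 385 CPM with a median of 0.0460. It had at least 5 counts in all 16 control oocytes and all 16 doxorubicin oocytes, but in only 7 of 16 control and 2 of 13 doxorubicin granulosa cells. The 2 ways of summarising this gene therefore disagree. Summed counts gave 30.3 CPM in oocytes and 47.4 in granulosa cells, a log2 ratio of -0.64 (95% interval -0.69 to -0.60), which was 0.06 without control granulosa library 1 and -1.03 over libraries whose own markers at least equalled the other type's, while the cell medians differed by 4.79 on the log2 scale in the other direction. The cells of the 2 types overlapped, with Hk1 present at a modest level in every oocyte and at a high level in few granulosa cells. Thinning every cell to 1000000 counts left Hk1 at 5 or more counts in 15 of 16 control oocytes and 6 of 16 control granulosa cells.

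Hk2 (chr6:82725025-82774454, minus strand), the inducible hexokinase of muscle, fat and many tumours, was under 5 CPM in every group and is not counted among the measured genes. It had at least 5 counts in 2 control oocytes, 4 doxorubicin oocytes, 9 control granulosa cells and 4 doxorubicin granulosa cells. Its highest cell was control granulosa library 2 at 18.4 CPM. Hk2 made up 0.303% of the counts of Hk1 and Hk2 in control oocytes (interval 0.179% to 0.478%) and 6.37% in control granulosa cells (5.87% to 6.89%). Per kilobase of transcript the shares were 0.235% and 5.01%. The share in control granulosa cells was 3.81% without library 2, 1.96% over the 11 libraries whose granulosa markers at least equalled their oocyte markers, and 2.21% over the 7 with at least 5000 CPM of granulosa markers. In 5 of the 12 control granulosa cells with at least 5 counts for the pair, Hk2 exceeded Hk1, by counts and per kilobase alike. Hk2 exceeded Hk1 in none of the 16 control oocytes.

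Gpi1 (chr7:34201330-34230336, minus strand) encodes the isomerase that turns glucose 6-phosphate into fructose 6-phosphate. It ranged from 458 to 772 CPM with a median of 524 in control oocytes, and from 0.161 to 1167 CPM with a median of 531 in control granulosa cells. The group levels were 552 and 518 CPM, a log2 ratio of 0.09 (0.08 to 0.10) that was -0.02 over libraries with own markers at least equal to the other type's, and the oocytes lay inside the granulosa range. Oocytes were more alike than granulosa cells, with a coefficient of variation between cells of 18.8% against 66.5%.

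Phosphofructokinase commits sugar to glycolysis, and its liver form Pfkl and muscle form Pfkm were both lower in oocytes by summed counts. Pfkl (chr10:77986947-78010083, minus strand) ranged from 0 to 139 CPM with a median of 36.8 in control oocytes, and from 0 to 720 CPM with a median of 162 in control granulosa cells. The group levels of 42.0 and 213 CPM gave a log2 ratio of -2.35 (-2.38 to -2.31), and it stayed between -2.55 and -2.07 when any cell was left out. The cells overlapped at the low end, since 5 of 16 granulosa cells had fewer than 5 counts. Pfkm (chr15:98092589-98132451, plus strand) ranged from 0.0922 to 40.03 CPM with a median of 23.6 in control oocytes, and from 0 to 413 CPM with a median of 7.77 in control granulosa cells. Its group levels were 22.1 and 89.6 CPM, a log2 ratio of -2.02 (-2.07 to -1.97). The cell medians pointed the other way, by 1.62 on the log2 scale, because 7 of the 16 granulosa cells had fewer than 5 counts while others were high.

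The Pfkm share of the counts of Pfkm and Pfkl was 34.5% in control oocytes (33.7% to 35.4%) and 29.6% in control granulosa cells (29.19% to 29.96%), or 40.6% and 35.2% per kilobase of transcript. The difference of 4.96 percentage points turned to -0.836 without control granulosa library 3, and single cells ran from 0.149% to 100% in oocytes and from 0% to 100% in granulosa cells. The remaining form, Pfkp, the platelet type, was at 3.86 CPM in control oocytes and 63.6 CPM in control granulosa cells, a log2 ratio of -4.04 that was -1.79 without control granulosa library 8. Per kilobase of transcript, Pfkl was the most abundant of the 3 in both, at 56.6% of the family in control oocytes and 55.2% in control granulosa cells, with Pfkp at 4.68% and 14.8%, the latter 3.30% without control granulosa library 8. All 3 forms together came to 19.9 CPM per kb in control oocytes and 104 in control granulosa cells.

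Aldoa (chr7, minus strand) encodes the main aldolase, which cleaves fructose bisphosphate. It ranged from 303 to 685 CPM with a median of 461 in control oocytes, and from 83.1 to 2177 CPM with a median of 1153 in control granulosa cells. The group levels were 468 and 1254 CPM, a log2 ratio of -1.42 (-1.43 to -1.41), between -1.48 and -1.35 when any cell was left out. The ranges overlapped, although the granulosa median lay above the highest oocyte. Among the 3 aldolase genes, Aldoa held 97.3% of the level per kilobase in control oocytes and 99.6% in control granulosa cells. Aldoc, the brain form, was at 23.5 CPM in control oocytes, where 15 of 16 cells had at least 5 counts, and at 8.45 CPM in control granulosa cells, where 1 of 16 did.

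Pgk1 (chrX:106187100-106203699, plus strand) encodes phosphoglycerate kinase, the first step that yields ATP. It ranged from 149 to 287 CPM with a median of 224 in control oocytes, and from 0 to 599 CPM with a median of 166 in control granulosa cells. The group levels of 226 and 210 CPM differed by 0.11 on the log2 scale (0.09 to 0.13), and by -0.61 over the 10 oocytes under 200 and the 7 granulosa libraries from 5000 CPM of granulosa markers, and the oocytes lay inside the granulosa range. Pgk1 is another gene that was even in oocytes, with a coefficient of variation of 17.9%, and uneven in granulosa cells, at 104%.

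Pkm (chr9:59656368-59679375, plus strand) encodes pyruvate kinase, which makes pyruvate. It ranged from 1171 to 1703 CPM with a median of 1460 in control oocytes, and from 42.4 to 1417 CPM with a median of 637 in control granulosa cells. In 9 of 16 oocytes the level was above the highest granulosa cell, although the ranges overlapped. The log2 ratio of 0.94 (0.93 to 0.95) was just under 2-fold, was 1.02 over the libraries whose own markers at least equalled the other type's, and it passed 1 when control granulosa library 2, 10, 12 or 13 was left out, reaching 1.04 without library 13. Pkm makes the M1 and M2 forms by alternative splicing, which counts per gene cannot separate, so the form in use was not analysed here.

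Ldha (chr7:46841475-46855627, plus strand) gave the widest gap of the 9. It ranged from 0.184 to 74.8 CPM with a median of 23.2 in control oocytes, and from 313 to 2558 CPM with a median of 896 in control granulosa cells. Every control oocyte was below every control granulosa cell. The group levels were 32.02 and 1083 CPM, a log2 ratio of -5.08 (-5.12 to -5.04), or 33.8-fold lower in oocytes, and between -5.50 and -4.93 when any cell was left out. With the 10 control oocytes under 200 CPM of granulosa markers and the 7 control granulosa libraries from 5000 CPM of them, the log2 ratio was -5.59. Those 10 oocytes had 19.4 CPM of Ldha.

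The Ldha that was present in oocyte libraries moved with granulosa and stroma markers. Over the 32 oocytes, the Spearman correlation of Ldha with the granulosa marker sum was 0.73, with 0.65 over the 16 controls and 0.81 over the 16 doxorubicin oocytes, where the sum and the gene share a library. With the stroma marker sum it was 0.64 over the 32, 0.35 over the controls and 0.86 over the doxorubicin oocytes. These are descriptions, and how much of the oocytes' Ldha belongs to RNA of other cells was not tested. The genes whose levels followed Ldha most closely over the 32 oocytes were Akr1cl (0.76) and Maged2 (0.75), among 4910 candidates.

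Ldhb (chr6:142490249-142507957, minus strand) was the most abundant of the 10 in both cell types. It ranged from 671 to 5949 CPM with a median of 4027 in control oocytes, and from 585 to 6316 CPM with a median of 2007 in control granulosa cells. The group levels were 3806 and 2516 CPM, a log2 ratio of 0.60 (0.59 to 0.60), and the ranges overlapped almost entirely. In control oocytes 7 cells, numbered 1 to 7, lay between 671 and 2927 CPM, and 9 cells, numbered 8 to 16, lay between 3962 and 5949 CPM. After doxorubicin 15 of 16 oocytes lay between 2440 and 4744 CPM and 1 at 6234 CPM. What the numbers 1 to 16 stand for is not given in the sources used here.

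Ldhb's share of the counts of Ldha and Ldhb set the cell types apart. It was 99.2% in control oocytes (99.1% to 99.2%) and 69.9% in control granulosa cells (69.8% to 70.0%). Single control oocytes ran from 96.3% to 99.997%, and single control granulosa cells from 21.0% to 92.0%, so the ranges did not overlap. These are shares of counts. Per kilobase of transcript the group shares were 99.4% and 76.4%, and Ldha exceeded Ldhb in 2 of the 16 control granulosa cells (3 by counts) and in none of the other cells of the study. The share in control granulosa cells was 71.7% over the 11 libraries whose granulosa markers at least equalled their oocyte markers, and 78.5% over the 7 where granulosa markers summed to 5000 CPM or more. The testis form Ldhc was at 3.02 CPM in control oocytes, with at least 5 counts in 5 of 16 cells. It had no counts in the granulosa cells of either group. The limit that a count of 0 allows, 3 counts over the group, would be 0.0167 CPM in the controls.

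**Figure D2:**
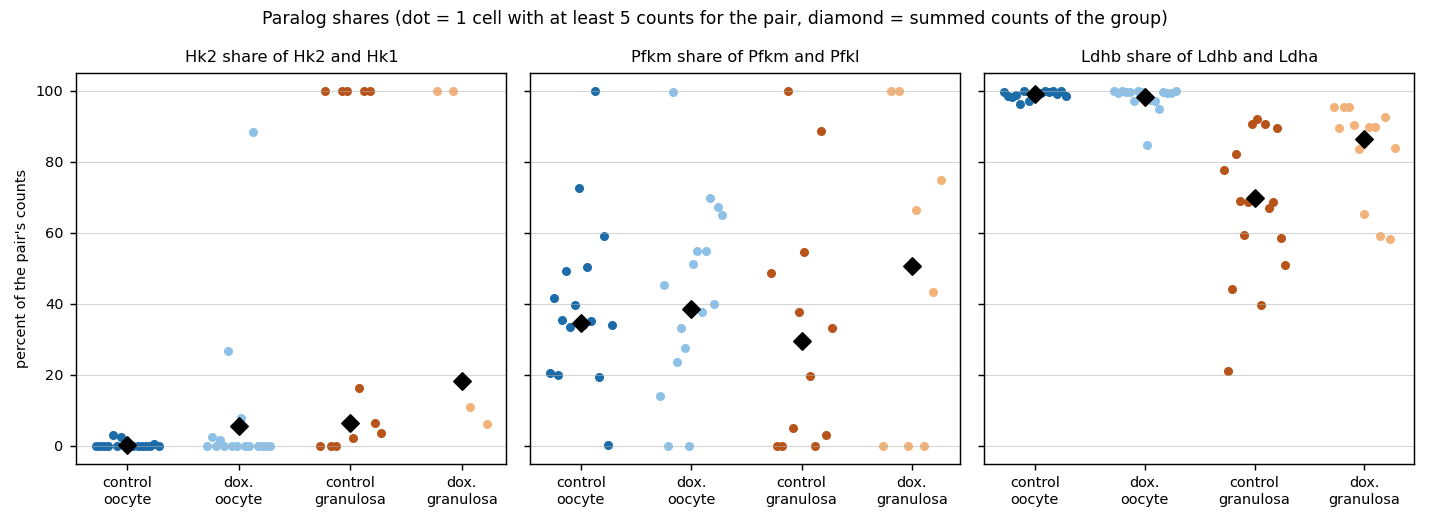
Share of each pair's counts that came from Hk2, Pfkm or Ldhb, in percent, for the 4 groups. Dots are cells with at least 5 counts for the pair, and diamonds are the summed counts of a group. The Ldhb share is at least 96.3% in every control oocyte and at most 92.0% in every control granulosa cell, while the Pfkm share spreads widely in all groups.

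For the order of the 10 genes, levels are given per kilobase of the longest protein-coding transcript (GENCODE M21). In control oocytes the order was Ldhb at 2919 CPM per kb, then Pkm at 594, Aldoa at 302, Gpi1 at 191, Pgk1 at 124, Ldha at 17.6, Pfkl at 11.2, Pfkm at 7.69, Hk1 at 7.08 and Hk2 at 0.0167. Of these neighbours, the cells of Pkm and Aldoa, Gpi1 and Pgk1, Pgk1 and Ldha, and Hk1 and Hk2 did not overlap. Ldha, Pfkl, Pfkm and Hk1 overlapped with their neighbours and cannot be ranked by cell, and per kilobase of coding sequence Hk1 at 10.7 stood above Pfkm at 9.46. In control granulosa cells Ldhb was again first at 1929 CPM per kb, followed by Aldoa at 810, Ldha at 597 and Pkm at 309, and every pair of neighbours overlapped. Ldha thus ranked 3 of 10 in granulosa cells and 6 of 10 in oocytes, and the first step and the phosphofructokinase step were at the low end in both.

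**Figure D3:**
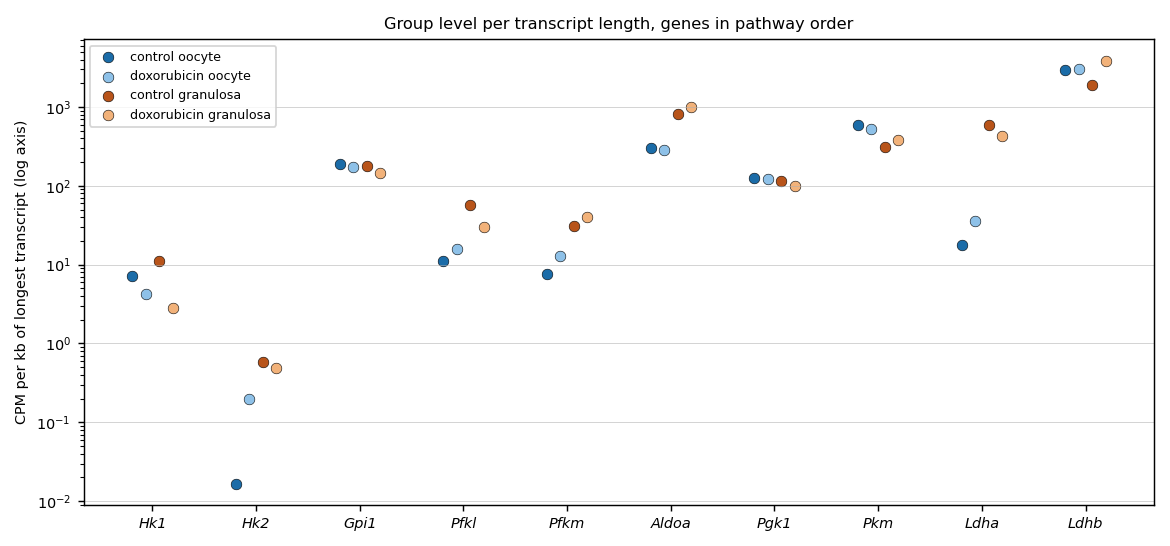
Group level of each of the 10 genes as CPM per kilobase of longest transcript on a log axis, in the order of the pathway, for the 4 groups. Ldhb is the highest gene in every group, and Ldha shows the widest distance between oocytes and granulosa cells among the genes above 5 CPM.

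The other enzymes of the pathway were a list fixed by their place in it. Of the 7 measured, 3 were at least 2-fold lower in control oocytes and 1 at least 2-fold higher. Among all 12373 genes measured, 31.3% were lower and 29% higher to that extent, so such differences are not particular to these enzymes. Tpi1, the triose phosphate isomerase, ranged from 21.4 to 221 CPM in control oocytes and from 305 to 2114 CPM in control granulosa cells, with no overlap, and its log2 ratio was -2.69. Pgam1, phosphoglycerate mutase, was at 49.2 and 410 CPM, a log2 ratio of -3.06, and Eno3, the muscle enolase, at 1.26 and 18.0 CPM, a log2 ratio of -3.84. Eno3 had at least 5 counts in 5 of 16 cells and a median of 0 CPM in each of these groups. Its highest cells were at 9.65 CPM in control oocytes and 93.6 CPM in control granulosa cells. Eno1, the widespread enolase, was at 353 and 377 CPM, a log2 ratio of -0.09. Bpgm, which makes 2,3-bisphosphoglycerate and is best known from red blood cells, was the enzyme that was higher in oocytes, at 739 against 157 CPM, a log2 ratio of 2.24. Over the 13 control granulosa libraries under 5000 CPM of oocyte markers, a limit set after the data were seen, the log2 ratios were -2.79 for Tpi1, -3.22 for Pgam1, -4.11 for Eno3 and 2.88 for Bpgm. The Gapdh row held 58.9 and 101 CPM. Gapdh, Aldoa, Pgk1, Ldha, Eno1 and Pgam1 have near-identical copies in the genome, and how reads were shared among copies is not given in the sources used here. Their levels are uncertain for this reason. The listed copies of Ldha and Pgk1, Ldha-ps2 and Pgk1-rs7, held at most 1.49 and 2.33 CPM in any group, and Eno1b held 148 to 205 CPM.

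Of 25 genes for transport and control of the pathway, 19 were measured between the control groups. Of these, 5 were at least 2-fold higher and 3 at least 2-fold lower in oocytes, against 29% and 31.3% of all 12373 genes measured. These counts do not set the list apart as more different than genes at large. Pdk1 and Pdk3, kinases that switch off pyruvate dehydrogenase, were at 65.9 and 305 CPM in control oocytes and at 19.2 and 115 CPM in control granulosa cells, log2 ratios of 1.78 and 1.41. The value of Pdk1 was 3.31 without control granulosa library 2, at 179 CPM, and 1.51 over libraries under 5000 CPM of oocyte markers. Slc16a1, the monocarboxylate transporter for lactate and pyruvate, was at 18.4 and 80.3 CPM, a log2 ratio of -2.13, although its cell medians differed by 1.26 in the other direction. It was -2.40 over that smaller set. Mpc1, a subunit of the mitochondrial pyruvate carrier, was at 32.6 and 66.3 CPM, a log2 ratio of -1.02. Among the genes higher in oocytes, Dlat was at 97.5 and 47.0 CPM, a log2 ratio of 1.05 that lay between 0.95 and 1.35 when any cell was left out. Slc2a1, the widespread glucose transporter, was at 72.9 and 41.6 CPM, a log2 ratio of 0.81 that was 1.33 without control granulosa library 12.

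After doxorubicin most of the oocytes' measured glycolysis genes lay within 2-fold of the controls, which are the same control oocytes as above. Of the 9 measured, 1 was at least 2-fold higher, against 6.3% of the 11119 genes measured, and none was at least 2-fold lower, against 2.45%, or 8.75% in both directions together. The median log2 ratio was -0.04 over the 9 genes and 0.01 over all genes. Ldhb was at 3916 CPM (log2 ratio 0.04), Gpi1 at 504 (-0.13), Aldoa at 437 (-0.10), Pgk1 at 221 (-0.04) and Pkm at 1277 (-0.18).

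The gene past 2-fold was Ldha, at 64.5 CPM against 32.02, a log2 ratio of 1.01 (0.97 to 1.05). Single doxorubicin oocytes ran from 0.163 to 560 CPM with a median of 14.3, below the control median of 23.2, so the higher sum came from few cells. The log2 ratio was 0.27 without doxorubicin oocyte 9, the cell at 560 CPM, and it was under 1 in 13 of the 32 cases in which 1 cell was left out. That cell held 3225 CPM of granulosa markers and 1882 CPM of stroma markers. Over the 10 control and 12 doxorubicin oocytes under 200 CPM of granulosa markers, Ldha was at 19.4 and 19.3 CPM. Pfkm was at 37.1 against 22.1 CPM, a log2 ratio of 0.74, and 9 of 16 doxorubicin oocytes lay above the highest control oocyte while 2 had no counts. Pfkl was at 58.9 against 42.0 CPM (0.49). Hk1 was at 18.4 against 30.3 CPM, a log2 ratio of -0.72 that became -1.11 without doxorubicin oocyte 7, and its median cell was at 12.3 against 28.0 CPM.

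Among the granulosa cells, doxorubicin and control groups differed more, as did genes at large. Ldhb was at least 2-fold higher and Hk1 at least 2-fold lower, which is 1 of 9 measured genes in each direction, against 20.6% higher and 20% lower, 40.6% in all, among the 12194 genes measured. The median log2 ratio was -0.20 over the 9 genes and -0.03 over all genes.

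Ldhb ranged from 1461 to 10167 CPM with a median of 4816 in doxorubicin granulosa cells, against 585 to 6316 CPM with a median of 2007 in the controls. In 5 of 13 doxorubicin cells it was above the highest control cell. The group levels were 5066 and 2516 CPM, a log2 ratio of 1.01 (1.00 to 1.02), and the value was under 1 in 14 of the 29 cases in which 1 cell was left out, to 0.89 without doxorubicin granulosa library 6. Oocyte markers moved with it: over the 13 doxorubicin libraries, the Spearman correlation of Ldhb with the oocyte marker sum was 0.93, while it was 0.38 over the 16 controls. Over the 13 control and 4 doxorubicin libraries under 5000 CPM of oocyte markers, a limit set after the data were seen, Ldhb was at 2461 and 2186 CPM, a log2 ratio of -0.17. Over the 11 and 5 libraries whose granulosa markers at least equalled their oocyte markers, the log2 ratio was -0.08. The higher Ldhb was therefore measured in the libraries with many oocyte transcripts and not in the others. Per 1000 CPM of oocyte markers, Ldhb ran from 179 to 3563 CPM in doxorubicin and from 162 to 5781 CPM in control granulosa libraries. The oocytes held 56.1 to 143 CPM after doxorubicin and 24.0 to 134 CPM in the controls. How much of the granulosa libraries' Ldhb belongs to oocyte RNA was not tested.

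The 2 genes that followed Ldhb most closely over the 29 granulosa libraries, among 5671 candidates, were H1f8, the oocyte linker histone (0.77), and Elobl (0.76). Over the 32 oocytes they were Gm10184 (0.74) and Gm10259 (0.72).

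**Figure D4:**
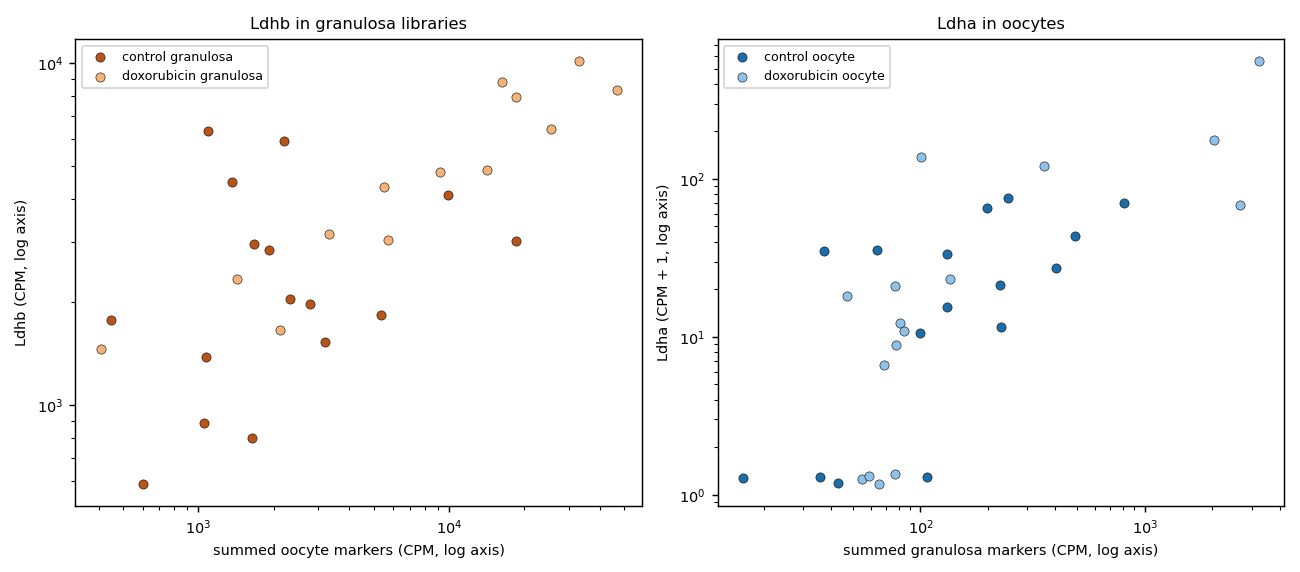
Left, Ldhb against the summed oocyte markers in the 29 granulosa libraries. Right, Ldha against the summed granulosa markers in the 32 oocytes, with all values in CPM (Ldha as CPM + 1) on log axes and dots as cells. The doxorubicin granulosa libraries with the most oocyte markers hold the most Ldhb, and the oocyte with 3225 CPM of granulosa markers holds the most Ldha, 560 CPM.

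Ldha was at 790 CPM in doxorubicin granulosa cells, ranging from 249 to 2554 CPM with a median of 519, against 1083 CPM in the controls, a log2 ratio of -0.46 (-0.47 to -0.44). The cells overlapped, and 2 of 13 lay below the lowest control. The Ldhb share of the pair was 86.5% (86.4% to 86.6%), ranging over cells from 58.4% to 95.6%, against 69.9% in the controls. Over libraries under 5000 CPM of oocyte markers the shares were 75.7% and 67.4%.

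Hk1 was at 12.002 against 47.4 CPM, a log2 ratio of -1.98 (-2.06 to -1.91), and it rested on few cells. Most of its counts in the doxorubicin group came from library 13, at 133 CPM, and the log2 ratio was -5.49 without that library and -1.28 without control granulosa library 1, at 385 CPM. It was -0.56 over libraries under 5000 CPM of oocyte markers, a set that kept doxorubicin library 13. Over libraries whose granulosa markers at least equalled their oocyte markers, Hk1 was at 29.7 against 62.1 CPM. With at least 5000 CPM of granulosa markers, a set without library 13, it was at 2.41 against 79.1 CPM. Pfkl was at 112 against 213 CPM, a log2 ratio of -0.93, with at least 5 counts in 6 of 13 doxorubicin and 11 of 16 control cells. It passed the 2-fold limit in 8 of 29 cases in which 1 cell was left out, reaching -1.44 without doxorubicin granulosa library 14, and was 0.23 over libraries under 5000 CPM of oocyte markers. Pfkm was at 115 against 89.6 CPM (0.36), with 5 of 13 and 9 of 16 cells at 5 counts or more, and 1.23 over that smaller set. The Pfkm share of the pair was 50.6% against 29.6%, and 42.5% against 27.001% over the smaller set. Pfkp was at 131 against 63.6 CPM, a log2 ratio of 1.05 that was 0.31 without doxorubicin granulosa library 1 and 3.30 without control granulosa library 8.

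The remaining genes lay within 2-fold in granulosa cells. Aldoa was at 1558 against 1254 CPM (0.31), Pkm at 937 against 751 (0.32), Gpi1 at 416 against 518 (-0.31) and Pgk1 at 182 against 210 (-0.20). Over libraries under 5000 CPM of oocyte markers Aldoa was at 1308 against 1319 CPM (-0.01), Pkm at 808 against 745 (0.12), Gpi1 at 313 against 529 (-0.76) and Pgk1 at 245 against 233 (0.07). The higher Aldoa was thus not measured in that smaller set, and Pgk1 lay on the other side of its control. Bpgm was at 396 against 157 CPM, a log2 ratio of 1.34, and had at least 5 counts in 13 of 13 doxorubicin and 12 of 16 control cells. Over libraries under 5000 CPM of oocyte markers Bpgm was at 116 against 100.2 CPM, a log2 ratio of 0.22. Of the 21 genes for transport and control measured here, 3 were at least 2-fold higher and 2 at least 2-fold lower. Among all 12194 genes measured, 20.6% were higher and 20% lower to that extent.

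**Figure D5:**
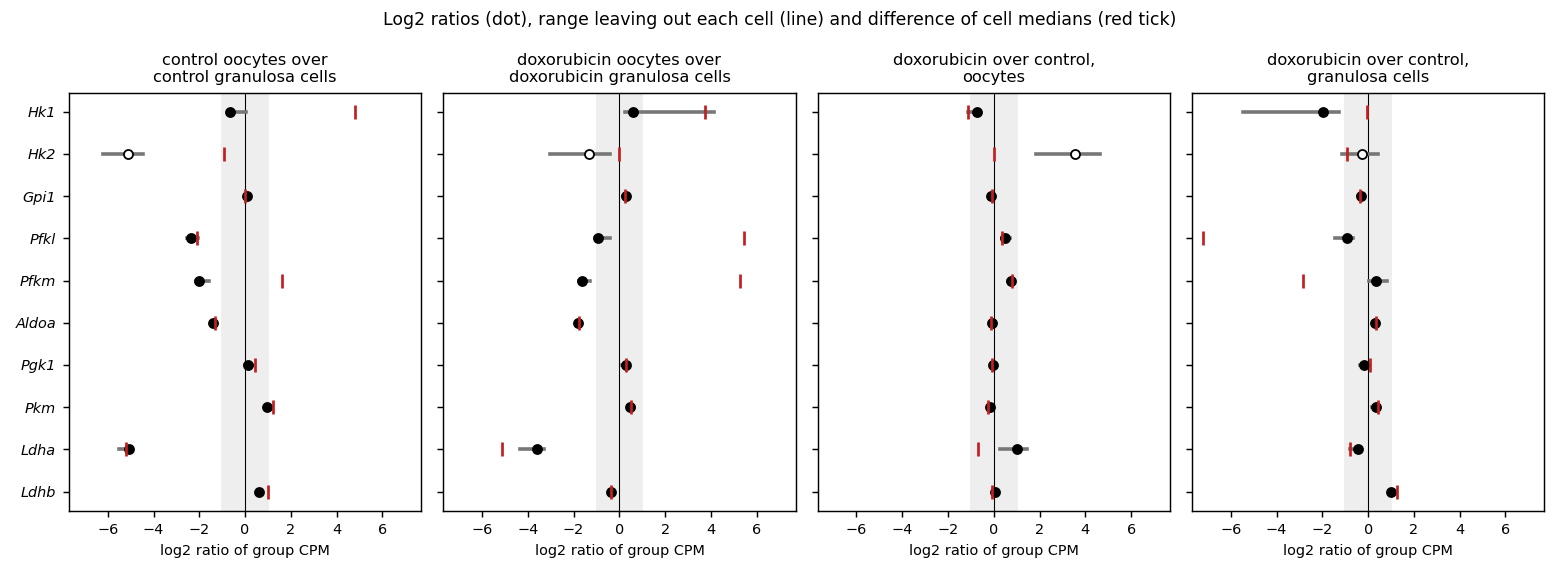
Log2 ratio of group CPM for the 10 genes in the 4 comparisons. Dots are ratios of summed counts (open where the gene was under 5 CPM in both groups), lines the range when any 1 cell is left out, red ticks the difference of cell medians, and the shaded band is less than 2-fold. Ldha is near -5 between the control cell types. In comparisons with granulosa cells, the red ticks of Hk1 and Pfkm lie apart from their dots. Those of Pfkl do so where doxorubicin granulosa cells are compared, but not between the control cell types (dot -2.35, tick -2.11).

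Between the cell types after doxorubicin, which uses the same doxorubicin cells as the paragraphs above, 3 of 9 measured genes were at least 2-fold lower in oocytes and none at least 2-fold higher, against 28.2% and 27.6% of the 12428 genes measured, 55.8% in all. Ldha was at 64.5 and 790 CPM, a log2 ratio of -3.61 (-3.64 to -3.59), and 15 of 16 oocytes lay below every granulosa cell. The exception was doxorubicin oocyte 9, without which the log2 ratio was -4.36. Aldoa ranged from 224 to 663 CPM in oocytes and from 743 to 2452 CPM in granulosa cells, with no overlap, and its log2 ratio was -1.83 (-1.84 to -1.82). Pfkm gave -1.63 by summed counts and 5.28 by cell medians, as 8 of the 13 granulosa cells had fewer than 5 counts. The Ldhb share of the pair was 98.4% in oocytes, from 84.7% to 99.99% by cell, against 86.5% in granulosa cells. Ldhb itself was at 3916 and 5066 CPM, a log2 ratio of -0.37, and was 0.84 over libraries under 5000 CPM of oocyte markers. In that set Pfkl at -2.26 and Hk1 at -1.07 were beyond 2-fold. It held 4 doxorubicin granulosa libraries, with a highest Hk1 of 133 CPM, in library 13, and a median of 7.08, against 12.3 in oocytes. Over the 12 oocytes under 200 and the 5 granulosa libraries from 5000 CPM of granulosa markers, Hk1 was at 21.4 and 2.41 CPM. Over all libraries Pfkl was at -0.93 and Hk1 at 0.61.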

How the data were processed

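Single oocytes and granulosa cells were lysed and amplified with a full-length low-input kit (SMART-seq v4) and tagged with Nextera XT, per the labels' protocols. Estimated counts for 23927 gene rows in 61 cell columns were deposited by the authors, and 34.05% of nonzero values are not whole. The submitters' processing notes name Partek, Bowtie2, HISAT2, DESeq2 and mm10, without roles. The annotation and the counting rule are not given in the sources used here. The raw reads of doxorubicin oocyte 4 are described as lost, and its column was kept.

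Counts were rounded, summed over the cells of a group and divided by the summed totals to give CPM. A group under 3 counts was set to 3 for a ratio. Intervals (95%) are exact conditional binomial for ratios, exact Poisson for levels and exact binomial (Clopper-Pearson) for shares. A gene was measured with at least 5 CPM in either group, and a 2-fold difference was counted. No animal is named, so no test was made, although count models would otherwise be used. The 10 genes, the lists and the limits were chosen with earlier results of these data known. The genes named are the 10, their paralogs and the other enzymes of the pathway. From 25 genes for transport and control, some of those with at least 50 CPM whose sign held without any 1 cell are named, largest first. The 2 most similar genes by Spearman correlation over cells are named for Ldha and Ldhb. Marker lists covered oocytes, granulosa cells, stroma, endothelium and blood. Alternatives used edgeR 4.0.16 and DESeq2 1.42.0 scaling in R 4.3.3, and the ratio code was checked on simulated data. Python 3.11.15, pandas 2.3.3 and scipy 1.17.1 were used. Coordinates are GRCm38 (GENCODE M21) and sequences RefSeq GRCm38.p6.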

Additional observations from a re-analysis of the deposited data

Results flagged for a closer look

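For 10 genes the doxorubicin group lay on opposite sides of its control in the 2 cell types, whichever 1 cell was left out. This difference between cell types was not tested. The 10 were picked by this pattern from the glycolysis genes, their paralogs, the other enzymes and the genes for transport and control. The share of all genes with the same pattern is not given here. The count therefore does not show whether these genes differ from genes at large. The log2 ratios, in oocytes and then in granulosa cells, were 0.49 and -0.93 for Pfkl, and -0.10 and 0.31 for Aldoa. They were -0.18 and 0.32 for Pkm, and 1.01 and -0.46 for Ldha. For the aldolase Aldoc they were -1.04 and 1.85, for Pgam1 0.36 and -0.46, for Eno1 -0.07 and 0.35, and for Bpgm -0.39 and 1.34. For Pdk1 they were 0.35 and -1.67, and for Pdk2 -0.32 and 0.76. Other settings turned 6 of these signs. By cell medians the value was -0.69 for Ldha and -0.03 for Pgam1 in oocytes, and 0.06 for Pdk1 in granulosa cells. Over the granulosa libraries under 5000 CPM of oocyte markers it was 0.23 for Pfkl, -0.01 for Aldoa and -0.69 for Pdk2. Aldoc had a median of 0 CPM in both granulosa groups. Bpgm was 0.22 over that smaller set, against 1.34 in all.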

How the results depend on the processing

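No paired analysis was possible because the cells carry numbers that name no animal or pair, and no test was made. Counts of the measured glycolysis genes at least 2-fold apart changed with the settings as follows. The share of all genes past the same limit is not given beside these counts. They therefore describe the measured genes only and do not show whether these differ from genes at large. By cell medians, 4 were higher on the oocyte side of the control comparison (0 by sums). By the same medians 0 were higher and 1 lower after doxorubicin in oocytes, 2 were lower after doxorubicin in granulosa cells, and 3 were higher in doxorubicin oocytes than in doxorubicin granulosa cells. Among others, cell medians reversed Pfkm between cell types, to 1.62 in controls and 5.28 after doxorubicin, and in granulosa cells after doxorubicin, to -2.85. They reversed Hk1 between control cell types to 4.79, Pfkl between doxorubicin cell types to 5.44, and Ldha after doxorubicin in oocytes to -0.69. They moved the median of all genes to 1.53 and 1.39 between cell types. The counts by cell medians between cell types therefore cannot be read as particular to the glycolysis genes. Without libraries whose other-type markers exceeded their own, 1 was higher (Pkm) and 5 lower in control oocytes (with Hk1 at -1.03), 4 were lower in doxorubicin oocytes than granulosa cells (with Pfkl at -1.88), and 0 higher after doxorubicin in granulosa cells, where Ldhb reversed to -0.08. With oocytes under 200 and granulosa libraries from 5000 CPM of granulosa markers, 1 was higher and 5 lower in control oocytes (Hk1 -1.59), 0 higher after doxorubicin in oocytes and 1 higher and 4 lower (Pfkl -1.57) in doxorubicin oocytes than granulosa cells, and Ldhb reversed to -0.02. Another pair of settings was added after the data were seen. Granulosa libraries under 5000 CPM of oocyte markers gave 0 lower after doxorubicin, 5 lower in doxorubicin oocytes than granulosa cells, and Ldhb at -0.17. Leaving out doxorubicin granulosa library 15 gave 2 lower. The equal-weight mean of cells gave 0 higher after doxorubicin in granulosa cells. At 1.5-fold, 2 were higher and 5 lower in control oocytes, 2 higher and 1 lower after doxorubicin in oocytes, 2 lower after doxorubicin in granulosa cells, and 1 higher and 4 lower in doxorubicin oocytes than granulosa cells. Leaving out 1 cell at a time moved these counts from 0 to 1 for higher in control oocytes, 0 to 1 for higher and 0 to 1 for lower after doxorubicin in oocytes, 0 to 1 for higher and 1 to 2 for lower after doxorubicin in granulosa cells, and 0 to 1 for higher and 3 to 4 for lower in doxorubicin oocytes.

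Shares differed between control oocytes and control granulosa cells by -6.06 percentage points for Hk2, 4.96 for Pfkm and 29.3 for Ldhb. By equal-weight means these were -5.25, 1.87 and 27.7. By cell medians they were -11.4, 8.80 and 30.6. Without libraries whose other-type markers exceeded their own they were -1.66, 2.03 and 27.5, with the stricter marker limits -1.83, 0.145 and 21.0, and under 5000 CPM of oocyte markers -4.47, 7.54 and 31.7. Leaving out 1 cell at a time gave -10.2 to -3.50 for Hk2, -0.836 to 10.2 for Pfkm and 26.3 to 32.1 for Ldhb. The cause of these changes was not tested. The percentage of all genes past 2-fold after doxorubicin in oocytes, 8.75, was 34 with no filter on low values. Scaling by edgeR or DESeq2 kept each of these counts. The depth allows a floor of 0.0153 to 0.0210 CPM per group.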
